A study of Mus musculus with 4 samples.

Results

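Cxcl10, Cx3cl1 and Cxcl12 are the chemokine genes outside the CC family that were followed here, 3 of the 12208 genes in the deposited table, in mouse 3T3 cells given the cytokine LTα1β2. They were taken by name, through the match of Ensembl identifiers to mouse symbols, at a time when earlier results of these data were known, and all 3 passed the filter on low values that kept 12160 genes. The labels describe 3T3 as a pre-osteoblast line and do not say which of the lines of that name it is. A control library and a library from cells given recombinant LTα1β2 were sequenced at 24 h and at 48 h, so each of the 4 groups is 1 library. The series title gives the protein as the human form, its dose is not given in the sources used here, and the control is given only as "control" or "NC".

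Chemokines are small secreted proteins that direct the movement of cells by binding receptors coupled to G proteins, and the CXC and CX3C names count the residues between the first cysteines of the protein. Cxcl10 encodes a ligand of CXCR3 that attracts activated T cells, and its gene is a classical target of interferon and NF-κB. Cx3cl1 encodes fractalkine, which is made as a membrane protein on a mucin stalk, can be shed by the proteases ADAM10 and ADAM17, and binds CX3CR1 on monocytes and microglia. Cxcl12 encodes stromal cell-derived factor, a ligand of CXCR4 and of the scavenging receptor ACKR3, which marrow stromal cells and osteoblast lineage cells make without stimulation and which keeps blood progenitors in the marrow. By this background the first pair was treated as inducible and Cxcl12 as homeostatic. LTα1β2 is a membrane form of lymphotoxin, and its receptor signals to the canonical and non-canonical arms of NF-κB.

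In the GENCODE M21 annotation (GRCm38), used here with the build of the authors unstated, Cxcl10 (ENSMUSG00000034855.13) lies on chromosome 5 from 92346638 to 92348889 on the minus strand. Cx3cl1 (ENSMUSG00000031778.13) lies on chromosome 8 from 94772009 to 94782427 and Cxcl12 (ENSMUSG00000061353.11) on chromosome 6 from 117168535 to 117181367, both on the plus strand. None of the 3 shares its span with another gene analysed here. Cxcl10 lies within the annotated span of Art3 on the opposite strand, and whether the counting used strand is not given in the sources used here. The table counts whole genes, so the 3 coding transcripts annotated for Cxcl12 could not be told apart, nor could the 2 of Cxcl10.

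The promoter windows of the 3 genes are shown because 2 of the genes are known for stimulus-dependent transcription and the third for steady transcription. Each window runs from 250 bases before to 50 bases after the RefSeq start (GRCm38.p6), 5′ to 3′ on the strand of the gene, and the capitals mark every match to the motifs named below on either strand. The windows are chr5:92348840-92349139 on the minus strand, chr8:94771930-94772229 on the plus strand and chr6:117168285-117168584 on the plus strand.
Cxcl10: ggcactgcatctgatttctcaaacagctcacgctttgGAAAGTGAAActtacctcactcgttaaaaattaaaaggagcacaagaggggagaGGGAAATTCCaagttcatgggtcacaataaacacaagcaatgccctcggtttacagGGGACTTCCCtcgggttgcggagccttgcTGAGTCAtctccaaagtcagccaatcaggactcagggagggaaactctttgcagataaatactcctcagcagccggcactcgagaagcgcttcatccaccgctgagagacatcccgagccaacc
Cx3cl1: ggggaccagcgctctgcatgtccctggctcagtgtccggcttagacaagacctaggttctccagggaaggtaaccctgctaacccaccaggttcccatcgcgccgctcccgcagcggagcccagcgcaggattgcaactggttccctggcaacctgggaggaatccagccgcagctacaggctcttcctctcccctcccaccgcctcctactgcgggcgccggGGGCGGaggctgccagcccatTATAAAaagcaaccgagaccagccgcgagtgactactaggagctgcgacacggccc
Cxcl12: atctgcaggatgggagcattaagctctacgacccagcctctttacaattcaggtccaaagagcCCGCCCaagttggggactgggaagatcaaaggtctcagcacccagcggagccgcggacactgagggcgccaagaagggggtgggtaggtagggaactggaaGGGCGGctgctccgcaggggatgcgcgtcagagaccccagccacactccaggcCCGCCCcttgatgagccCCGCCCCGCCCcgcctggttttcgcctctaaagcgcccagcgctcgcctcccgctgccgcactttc

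Among the 3 windows, the NF-κB consensus was found in that of Cxcl10 alone, with 2 matches, at -159 to -150 and -103 to -94 from the start. It occurred in 4.51% of 32841 promoter windows of the same length. The same window held the core of the interferon-stimulated response element at -213 to -204, a match found in 3.44% of windows, and an AP-1 site (TGANTCA) at -74 to -68, found in 7.81%. The Cx3cl1 window held a TATA box (TATAAA; 13.6% of windows) at -6 to -1 and 1 GC box (GGGCGG; 35.7%) at -27 to -22, while the Cxcl12 window held 5 GC boxes, the last pair sharing a base. The RefSeq start of Cx3cl1 lies 171 bases inside the GENCODE span given above, whereas the starts of the other genes coincide. The gamma-activated site (TTCNNNGAA; 8.30%) and the core of the hypoxia response element (ACGTG; 19.6%) had no match in the 3 windows. GC content was 50.3% in the Cxcl10 window and 64.7% in each of the others, against a median of 52.7% over all windows. A match is a string of letters and not a shown binding site, and no match says nothing of more distant sequence.

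Sequencing depth, taken as the reads that the deposited CPM values (counts per 1000000) stand for, ran from 11355974 to 15995777 per library. Of the osteoblast lineage markers, 10 of 12 were tested, Runx2 at 67.5 to 126 CPM and Col1a1 at 7356 to 15684 CPM among them. Bglap was low at 1.13 to 1.33 CPM, as was Bglap2 at 2.99 to 4.25 CPM, while Alpl and Ibsp were not analysed here. Of macrophage and leukocyte markers 4 of 10 were tested. Their summed level was 72.1 CPM at 24 h and 83.8 at 48 h in control, against 67.9 and 98.2 after treatment, most of it Lyz2. Of 8 endothelial markers only Vwf was tested, at 2.98 to 3.80 CPM. The treated 48 h library stood apart from the others in its read-weighted median transcript length, 3127 bases against 3588 to 3659. As each group is 1 library, intervals below cover counting error only and differences within 24 h or within 48 h have no replicate behind them. In bulk RNA, more cells expressing a gene and more RNA per cell cannot be told apart.

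Cxcl10 was the lowest of the 3 genes and the one with the largest treated to control ratio at both times. It was at 7.50 CPM (120 reads) in control at 24 h, 9.93 CPM (130 reads) in control at 48 h, 24.2 CPM (362 reads) in treated cells at 24 h and 39.8 CPM (452 reads) in treated cells at 48 h. Both treated libraries lay above both controls. The ratio of treated to control was 3.22 at 24 h (95% counting interval 2.61 to 3.99) and 4.01 at 48 h (3.29 to 4.91). On the log2(CPM + 1) scale, which understates the change of low genes, these were 1.57 and 1.90, and 9 and 16 of the 12160 genes had a higher fold at the respective time. From 24 h to 48 h Cxcl10 was 1.32 times as high in control (1.02 to 1.71) and 1.65 times as high in treated cells (1.43 to 1.90). The treatment ratio at either time exceeded the control change with time by more than these intervals.

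Cx3cl1 was far more abundant, and its treated level was highest at 24 h. Control cells held 152 CPM (2428 reads) at 24 h and 161 CPM (2115 reads) at 48 h, while treated cells held 344 CPM (5152 reads) and 252 CPM (2860 reads). Again both treated libraries lay above both controls. The ratio was 2.26 at 24 h (2.16 to 2.38), with 18 genes higher by fold, and 1.56 at 48 h (1.47 to 1.65), with 745 genes higher. The control libraries differed by little, 48 h being at 1.06 of 24 h (1.00 to 1.13). Within treated cells 48 h was at 0.733 of 24 h (0.700 to 0.767), while Cxcl10 was higher at 48 h than at 24 h. Whether the treatment difference itself changed with time could not be tested with 1 library per group.

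Cxcl12 had the highest CPM of the 3 in every library and the smallest treated to control ratio. The control libraries held 330.0 CPM (5279 reads) at 24 h and 309 CPM (4048 reads) at 48 h, the treated ones 431 CPM (6462 reads) and 387 CPM (4392 reads). The treated libraries were again the higher pair, by 1.31 times at 24 h (1.26 to 1.36) and 1.25 times at 48 h (1.20 to 1.31). In CPM the order was another, with differences at 24 h and 48 h of 192 and 90.4 for Cx3cl1, 101 and 77.7 for Cxcl12, and 16.7 and 29.9 for Cxcl10. These intervals lie above 1, but 552 genes had a higher fold at 24 h and 2033 at 48 h. From 24 h to 48 h Cxcl12 was at 0.937 in control (0.899 to 0.976) and 0.897 in treated cells (0.863 to 0.932).

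**Figure D1:**
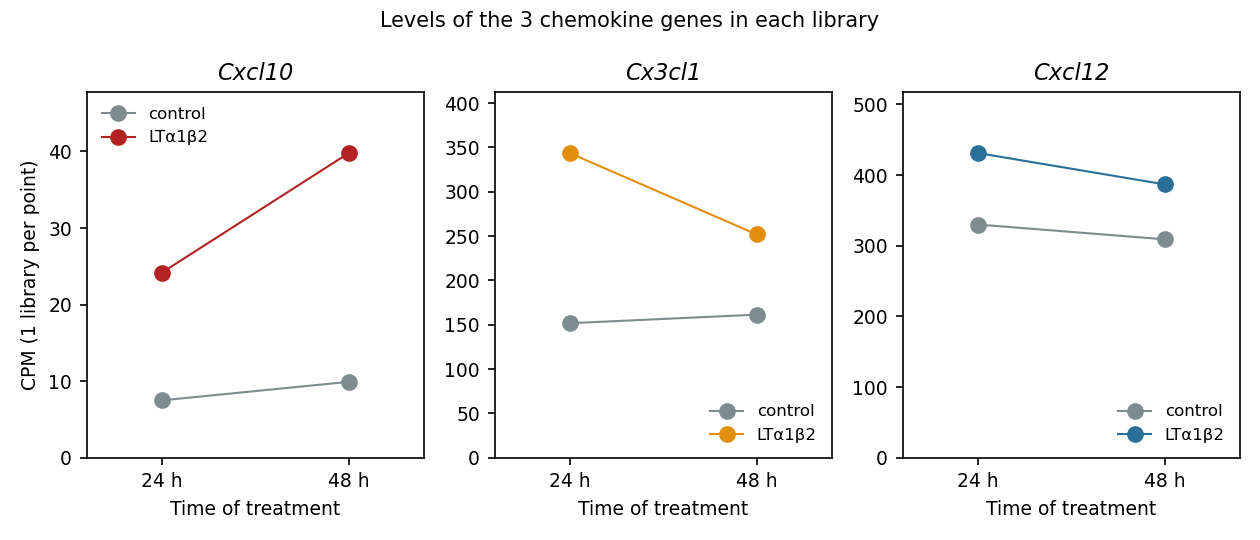
CPM of Cxcl10, Cx3cl1 and Cxcl12 (vertical axes from 0, one scale per gene) against time, with grey points for control and coloured points for LTα1β2, 1 library per point; lines only join libraries of one treatment. Treated points lie above control points for each gene at both times, and the treated level of Cx3cl1 is 344 CPM at 24 h and 252 CPM at 48 h.

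By a rule of size of at least 2-fold on the log2(CPM + 1) scale, Cxcl10 and Cx3cl1 were higher at 24 h, as were 0.345% of all genes tested, while 0.181% were lower. At 48 h Cxcl10 alone of the 3 passed, against 1.86% of genes higher and 0.715% lower, and Cxcl10 was among the 0.214% that passed at both times. From 24 h to 48 h none of the 3 passed in control, where 0.00822% of genes were higher and 0.0247% lower by this rule, nor in treated cells, where the shares were 1.04% and 0.428%.

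**Figure D2:**
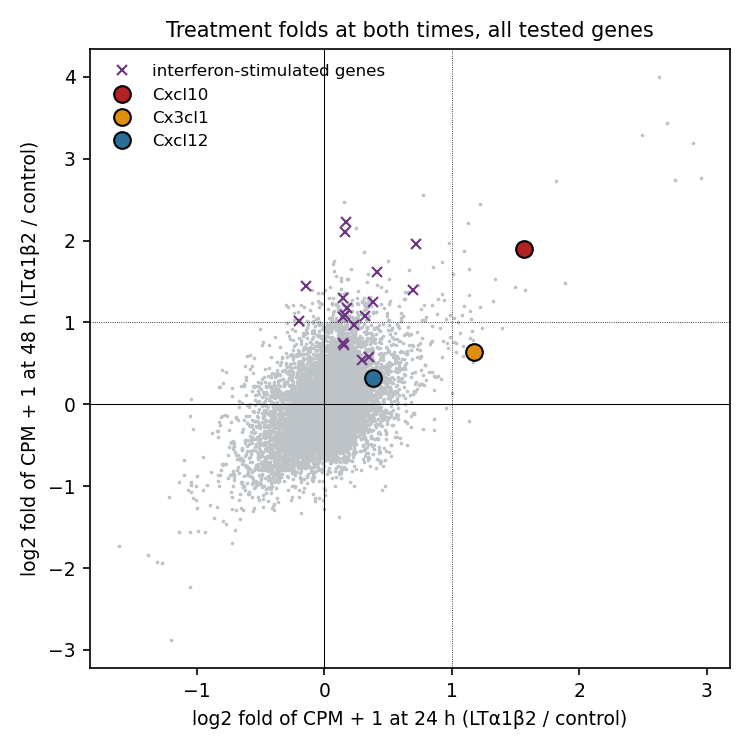
Log2 fold of CPM + 1, treated over control, at 24 h (horizontal) and 48 h (vertical) for the 12160 tested genes (grey), with the 3 chemokine genes as large points, interferon-stimulated genes as crosses and dotted lines at a log2 fold of 1. Cxcl10 lies at 1.57 and 1.90, Cx3cl1 at 1.17 and 0.64 and Cxcl12 at 0.38 and 0.32, and the crosses lie mostly higher on the vertical than on the horizontal axis.

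Across both times, Cxcl10 and Cx3cl1 rose with treatment and Cxcl12 did not pass the test. The test was limma with terms for time and for treatment, adjusted over all 12160 genes, in which the 2 times stand as repeats of the treatment. The effect on the log2 scale was 1.73 ± 0.19 (SE) for Cxcl10 (limma adjusted p = 9.24e-18) and 0.91 ± 0.17 for Cx3cl1 (limma adjusted p = 1.94e-05). For Cxcl12 the effect was 0.35 ± 0.18 (limma adjusted p = 0.288). Each gene was higher in treated cells at 2 of 2 times, as were 28.8% of all genes tested. The share of all genes that rose was 2.92%, and 2.27% fell. The model has 1 residual degree of freedom and gave each gene the spread typical of its level, taken as exactly known. Its p-values are small in part because of this certainty. A prior of 10 degrees of freedom lets the gene's own spread count in part and treats the spread as less certain. The SE then went from 0.185 to 0.184 for Cxcl10, from 0.171 to 0.182 for Cx3cl1 and from 0.175 to 0.167 for Cxcl12. With this prior 0.321% of genes rose and 0.206% fell, with Cxcl10 among the former (limma adjusted p = 0.0016). Cx3cl1 did not pass (limma adjusted p = 0.0633).

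The calls of Cx3cl1 and Cxcl12 also changed in fits of 3 libraries. Such a fit drops a library and the time term together and leaves 1 library in an arm, so the 2 changes cannot be told apart. With all 4 libraries and no time term Cx3cl1 already did not pass (limma adjusted p = 0.127). Its effect was 0.86 without the 24 h control (limma adjusted p = 0.824) and 0.95 without the 48 h control (limma adjusted p = 0.595), close to 0.91 with all libraries. Cxcl12 passed with an effect of 0.28 when the treated 24 h library was left out (limma adjusted p = 0.00535) and of 0.43 when the treated 48 h library was left out (limma adjusted p = 4.35e-05). Cxcl10 passed each of these 4 fits. The share of all genes that rose was 0.189% without the 24 h control, 0.132% without the 48 h control and 15.5% without the treated 24 h library. Leaving out the treated 48 h library gave 3.31% rising and 3.04% falling. With each library's trend of level on transcript length removed, Cxcl12 passed with an effect of 0.46 ± 0.09 (limma adjusted p = 0.0396), where 1.35% of genes rose, and its 48 h log2 fold was 0.55 in place of 0.32. Its longest transcript has 5627 bases, against 3315 for Cx3cl1 and 2230 for Cxcl10. The part of the length difference between libraries in the Cxcl12 result was not tested further. Without a time term 0.164% of genes rose and Cxcl10 was called (limma adjusted p = 0.0472). Of all genes 0.781% rose with median-of-ratios rescaling, and with infinite prior degrees of freedom 6.65% did so under that rescaling and 9.14% with the length trend removed. In the other settings the share that rose was 2.87% and 3.03% with pseudocounts of 0.25 and 5, 2.93% rescaled without mitochondrial genes, 2.9% with no filter, 3.11% at a mean CPM of at least 5, 2.89% with no trend in the prior and 2.91% with limma voom.

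**Figure D3:**
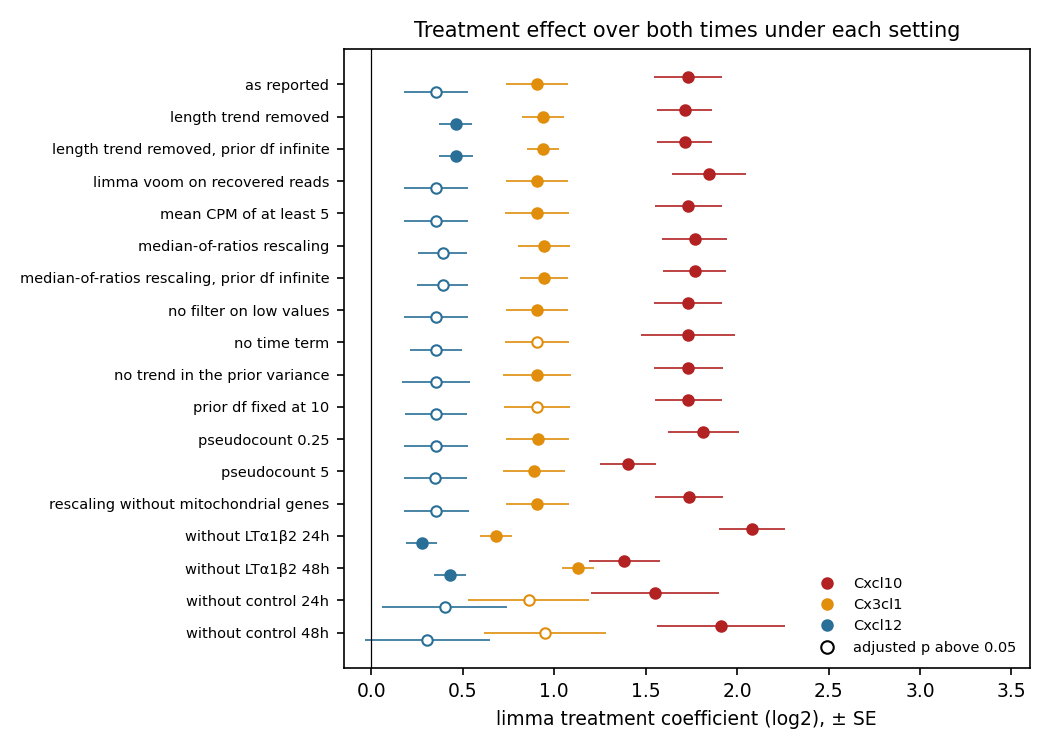
Treatment coefficient of the limma model on the log2 scale (horizontal, bars ± SE) for Cxcl10, Cx3cl1 and Cxcl12 under each setting (rows), with open points where the adjusted p was above 0.05. The order Cxcl10, Cx3cl1, Cxcl12 is the same in each row and each coefficient is above 0, while open and filled points change for Cx3cl1 and Cxcl12.

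The inducible genes were then set against the homeostatic one within the same libraries. The ratio of 2 genes' folds is independent of how columns are scaled, but a trend on transcript length does not cancel in it. With that trend removed, the 48 h log2 folds were 1.87 for Cxcl10, 0.72 for Cx3cl1 and 0.55 for Cxcl12. They were 1.90, 0.64 and 0.32 before its removal. The ratios below keep the trend, and their intervals cover counting error only. At 24 h the fold of Cxcl10 was 2.46 times that of Cxcl12 (1.99 to 3.07, exact conditional interval) and at 48 h 3.20 times (2.62 to 3.94). The fold of Cx3cl1 was 1.73 times that of Cxcl12 at 24 h (1.63 to 1.84) and 1.25 times at 48 h (1.16 to 1.34). Between the inducible genes, the fold of Cxcl10 was 1.42 times that of Cx3cl1 at 24 h (1.15 to 1.77) and 2.57 times at 48 h (2.09 to 3.17). From 24 h to 48 h in control, with no treatment involved, the ratio was 1.41 for Cxcl10 over Cxcl12 (1.09 to 1.83). It was 1.14 for Cx3cl1 over Cxcl12 (1.06 to 1.22) and 1.24 for Cxcl10 over Cx3cl1 (0.956 to 1.62). The 48 h ratio of Cx3cl1 to Cxcl12 was thus little larger than the ratio of these genes between untreated libraries, and the intervals overlap. The interval of the 24 h ratio of Cxcl10 to Cx3cl1 also overlaps that of their ratio between untreated libraries.

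**Figure D4:**
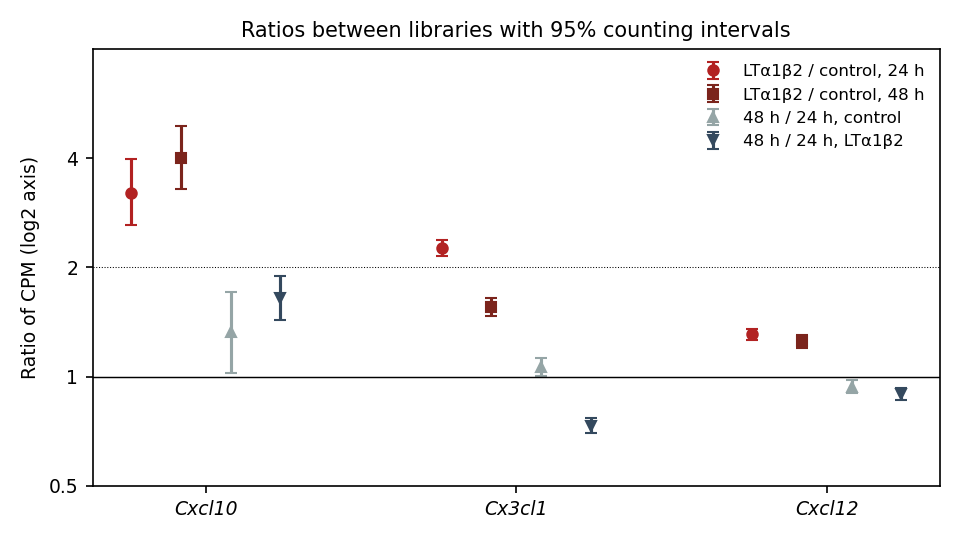
Ratio of CPM between libraries (log2 axis) for each gene, treated over control at 24 h and 48 h and 48 h over 24 h in each treatment, with bars for the 95% counting interval, a solid line at 1 and a dotted line at 2. Treatment ratios of Cxcl10 lie at 3.22 and 4.01 and those of Cxcl12 at 1.31 and 1.25, and the treated 48 h over 24 h ratio lies at 1.65 for Cxcl10 and 0.733 for Cx3cl1.

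Levels were compared between genes per kilobase of the longest annotated transcript. In control at 24 h and 48 h, Cxcl12 was at 58.7 and 54.9 CPM per kilobase, Cx3cl1 at 45.8 and 48.7 and Cxcl10 at 3.36 and 4.45. In treated cells Cx3cl1 was the highest at 104 and 76.0, before Cxcl12 at 76.6 and 68.7 and Cxcl10 at 10.8 and 17.8. On this scale the level of Cxcl12 was 17.4 times that of Cxcl10 in control at 24 h and 3.85 times in treated cells at 48 h. The longest Cxcl10 transcript is not a coding one, and with the longest coding transcripts (1353 bases for Cxcl10) these ratios were 10.6 and 2.34. The order of Cxcl12 and Cx3cl1 depends on the transcript taken, since the median length of the 6 annotated transcripts of Cx3cl1 is 466 bases. With the median transcript length Cx3cl1 was the highest in all 4 libraries, at 326 CPM per kilobase in control at 24 h against 110 for Cxcl12, and Cxcl10 was the lowest on either scale.

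Genes with profiles most like each chemokine gene were sought by the root mean square difference of centred log2(CPM + 1) over the 4 libraries, among 10893 other protein-coding genes. Nearest to Cxcl10 were Cd74 (0.228), Slfn2 (0.233), Casp4 (0.235), Psmb10 (0.272) and Tnfrsf9 (0.276), each higher in treated than control cells and higher at 48 h than 24 h among treated. Nearest to Cx3cl1 were Bdkrb1 (0.0629), Mt2 (0.0652), Tnfaip3 (0.0740), Ampd3 (0.0816) and Synm (0.0865), each lower at 48 h than at 24 h in treated cells. Bdkrb1 and Mt2 stayed at 7.27 CPM or below, and Cd74, the nearest to Cxcl10, at 9.86 CPM or below. Nearest to Cxcl12 were Bcl2l11 (0.0149), Gnl3 (0.0228), Itih2 (0.0278), Prr13 (0.0291) and Fastkd3 (0.0299). Itih2 stayed at 1.47 CPM or below, with 10 to 22 reads per library. The genes were picked by these same values, so the directions they share with each chemokine gene follow from the choice. With 4 points per profile and 1 library per point this is a description of these libraries.

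Of the other CXC and XC ligand genes, 0 of 14 listed were among the genes tested, so neutrophil-attracting CXC genes and the other CXCR3 ligand genes were not analysed here. A ligand gene low in any library, in control for example, would be missing even if treatment raised it. Of 12 receptor genes 2 were tested, both of atypical receptors that bind chemokines without signalling to G proteins. Ackr3, the scavenger of the Cxcl12 product, stood at 4.25 CPM in control against 4.80 after treatment for 24 h, and at 4.12 against 2.38 for 48 h (limma adjusted p = 0.699). Ackr4 fell, with 5.31 CPM in control against 3.87 treated for 24 h and 6.26 against 2.29 for 48 h (limma adjusted p = 0.0145). Thus of the 2 tested 0 rose and 1 fell, beside 2.92% and 2.27% of all genes tested. With a prior of 10 degrees of freedom 0 receptor genes passed, where 0.206% of all genes fell. The same was so with the length trend removed (1.46% of all genes fell) and with median-of-ratios rescaling (0.683%).

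Of 9 genes for proteases that cleave or shed these chemokines 5 were tested. Of these 1 rose and 0 fell, beside 2.92% and 2.27% of all genes tested. The gene that rose was Mmp9, which encodes a gelatinase, with 11.2 CPM in control against 93.4 in treated cells for 24 h and 20.8 against 147 for 48 h. The sheddase genes of fractalkine did not pass. For Adam10 the 24 h libraries held 234 CPM (control) against 227 (treated) and the 48 h libraries 253 against 194, and for Adam17 92.0 against 98.4 and 93.5 against 83.8 (limma adjusted p = 0.609 and 0.965). Mmp2 and Mmp14, whose products are matrix metalloproteases able to cleave the Cxcl12 product, did not pass, their treated to control ratios being 0.773 and 0.666 for Mmp2 and 0.910 and 0.721 for Mmp14 in order of time. The median log2 fold of the list was -0.04 at 24 h and -0.38 at 48 h, beside 0.02 and -0.09 for all genes tested. With the length trend removed the 48 h median was -0.22, beside -0.01 for all genes. With a prior of 10 degrees of freedom 1 gene of the list rose and 0 fell, beside 0.321% and 0.206% of all genes.

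Heparan sulfate on the cell surface holds chemokines near the cells that make them. Of the genes of its core proteins and chain-building enzymes 16 of 18 listed were tested. Of these 0 rose and 2 fell, beside 2.92% and 2.27% of all genes tested. Of the 16, 12 were lower at both times, as were 33.2% of all 12160 genes tested. Sdc2, which encodes a syndecan core protein, had 640.2 CPM in control against 497 treated for 24 h, and 732 against 429 for 48 h (limma adjusted p = 0.0377). Ndst2, which encodes a sulfotransferase of the chains, was the other to fall, at 0.775 and 0.580 of control. Hspg2, the perlecan gene, and Hs6st1, of another sulfotransferase, did not pass (limma adjusted p = 0.0591 and 0.0731), with log2 folds of -0.26 and -0.80 for Hspg2 and -0.28 and -0.68 for Hs6st1. The list medians were -0.08 and -0.43, and after removal of the length trend the 48 h median was -0.30. With a prior of 10 degrees of freedom 0 fell, beside 0.206% of all genes. With the length trend removed 1 fell (1.46% of all genes) and with median-of-ratios rescaling 0 (0.683%).

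The 12 tested NF-κB, IRF and STAT genes encode factors known at inducible chemokine promoters, and their list medians were 0.10 and 0.50. Of these genes 4 rose and 0 fell, beside 2.92% and 2.27% of all genes tested. Nfkb2, of the non-canonical p100 precursor, rose to 2.24 times control at 24 h and 1.87 at 48 h. The others that rose were Irf1 (1.67 and 1.86), Relb (1.55 and 1.58) and Irf7 (1.05 and 2.17). Of the 4, Nfkb2 had the larger ratio at 24 h and Irf1, Relb and Irf7 at 48 h, though these differences were not tested. With a prior of 10 degrees of freedom 1 of these factor genes rose, beside 0.321% of all genes tested.

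Of 18 tested interferon-stimulated genes 13 rose and 0 fell, beside 2.92% and 2.27% of all genes tested. Their median log2 fold was 0.17 at 24 h but 1.13 at 48 h. Of the 18, 16 were higher at both times, as were 28.8% of all genes tested. Isg15, among those that rose, was at 0.902 of control at 24 h and 2.74 times control at 48 h. The 48 h folds rest on the treated 48 h library, which stood apart in read-weighted median transcript length. At 24 h 0 of them were 2-fold higher, whereas Cxcl10 was, and at 48 h 13 were, beside 0.345% and 1.86% of all genes tested. Those with the largest mean folds were the GTPase gene Gbp3, the antiviral effector genes Ifit3 and Ifit1, and the GTPase gene Gbp2. Their 24 h ratios were 1.66 for Gbp3, 1.62 for Gbp2, 1.13 for Ifit3 and 1.12 for Ifit1, all below the Cxcl10 ratio of 3.22 at that time. At 48 h the ratio was 4.72 for Ifit3 and 4.33 for Ifit1 (4.12 to 4.57), next to 4.01 for Cxcl10 (3.29 to 4.91). With a prior of 10 degrees of freedom 2 interferon-stimulated genes rose, beside 0.321% of all genes tested. With the length trend removed 3 rose (1.35% of all genes) and with median-of-ratios rescaling 2 (0.781%). The 48 h median was 1.11 with the length trend removed and 1.22 with median-of-ratios rescaling, and the prior degrees of freedom that limma estimated in these fits were 7.54 and 9.76 in place of infinite.

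Cxcl12 is one of the genes by which marrow stromal niche cells support blood progenitors. Of 12 other tested niche genes (of 14 listed) 2 rose and 2 fell, beside 2.92% and 2.27% of all genes tested. The list medians were 0.15 and 0.02 (0.23 at 48 h with the length trend removed). Vcam1, of an adhesion molecule for progenitors, rose, with 376 CPM in control against 622 treated for 24 h and 392 against 585 for 48 h. Il34, of a ligand of the macrophage growth factor receptor, also rose, with 4.94 against 7.47 CPM and 5.42 against 10.7 CPM. Igf1 and Pdgfrb fell, with treated to control ratios of 0.658 and 0.572 for Igf1 and 0.748 and 0.594 for Pdgfrb. Without the treated 48 h library 4 niche genes rose and 3 fell, and with a prior of 10 degrees of freedom 0 passed.

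Of the osteoblast lineage markers 8 of 10 tested were lower in treated cells at both times, beside the 33.2% of all genes tested. Of the 10, 4 fell and 0 rose, beside 2.27% and 2.92% of all genes tested. Sp7, Col1a1, Runx2 and Dlx5 were the genes that fell, and the list medians were -0.35 and -0.69. Spp1 alone was higher at both times, at 1.16 and 1.45 times control, and did not pass the test. Sp7, of a transcription factor needed for osteoblast formation, had 35.1 CPM in control against 12.8 treated for 24 h, and 30.8 against 7.93 for 48 h. With a prior of 10 degrees of freedom 1 fell, beside 0.206% of all genes tested. Of the 4 macrophage and leukocyte markers and of the 1 endothelial marker 0 passed the test, nor did any when the treated 48 h library was left out, with a prior of 10 degrees of freedom, with the length trend removed or with median-of-ratios rescaling.

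**Figure D5:**
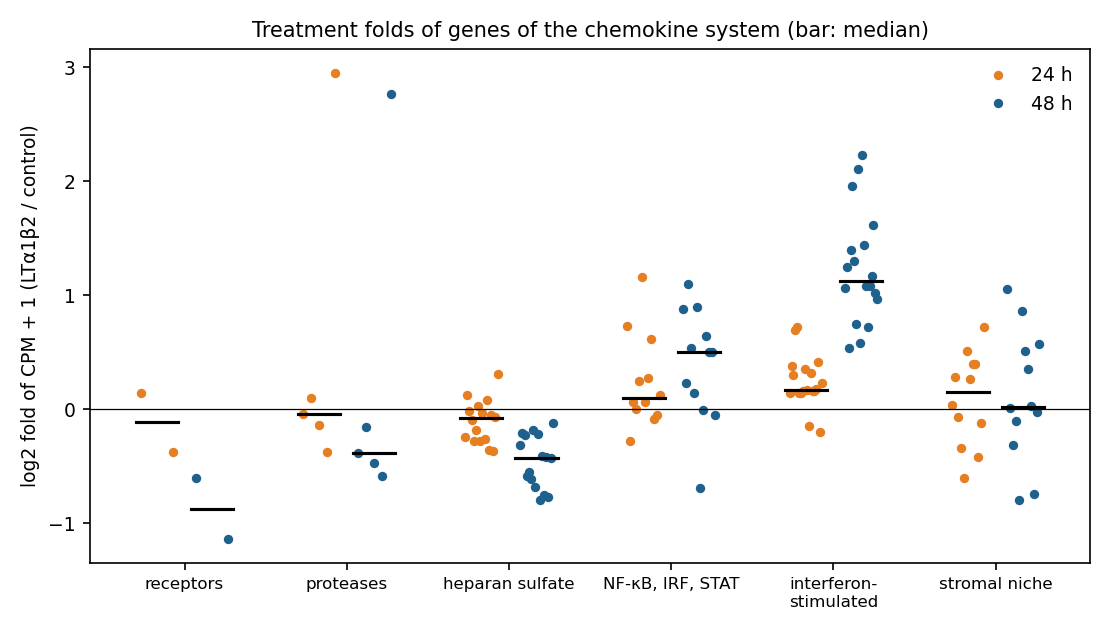
Log2 fold of CPM + 1, treated over control, of each tested gene in 6 lists of the chemokine system at 24 h (orange) and 48 h (blue), with black bars for list medians. Interferon-stimulated genes have a median of 0.17 at 24 h and 1.13 at 48 h, heparan sulfate genes of -0.08 and -0.43, and the high point among proteases is Mmp9.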

How the data were processed

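Stranded libraries were made from 1 µg of total RNA and sequenced as 150 bp pairs, per the labels' protocols. For the aligner, counter and genome build nothing is given in the sources used here; edgeR 3.30.0 is named in the submitters' processing notes. The authors deposited CPM values, 1 column per library, each summing to 1000000 over the 12208 genes. The table holds no zeros and its lowest value stands for 9 to 12 reads, so genes silent or low in any library were not analysed here. A gene low in control and higher after treatment can thus be missing, and ranks of folds are among the genes that remained. In each column 100% of values were whole multiples of the worth of 1 read within 0.01 of a read, and these reads gave the exact 95% intervals (SciPy 1.17.1).

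GENCODE M21 gave symbols for 12205 identifiers, and transcript lengths. The 12160 genes whose mean CPM reached 1 were fitted with limma 3.58.1 (R 4.3.3) on log2(CPM + 1), as time plus treatment, trended empirical Bayes, two-sided, Benjamini-Hochberg at 0.05; limma estimated infinite prior degrees of freedom. "Rose" and "fell" mean past this test. The fit was also run on simulated reads, with the same spread setting for all genes and the same effect at both times. Such reads cannot show how it performs where spread or effect differs. No source states separate cultures for the 4 libraries, so the spread may be technical. The genes and lists were chosen with earlier results of these data known. Genes named were the 3 chemokine genes, tested ligands and receptors, up to 4 genes per other list with the largest mean fold, and the 5 nearest profiles; Adam17, outside this rule, was named for its role after its values were seen. The motifs were chosen with the promoter sequences in view. Settings tried are in the closing section; those with infinite prior degrees of freedom, the coding-transcript length and the list counts were added after seeing the data.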

Additional observations from a re-analysis of the deposited data

How the results depend on the processing

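No paired analysis was possible because the labels carry no replicate numbers; the time term of the reported fit already sets treated against control within each time. Cxcl10 kept its call in all 17 other limma fits. Cx3cl1 kept its direction but did not pass without a time term (0.91, adjusted p = 0.127) or with 10 prior degrees of freedom (0.91, adjusted p = 0.0633); leaving out 1 library each gave 0.68 to 1.13. Cxcl12 passed with the length trend removed (0.46, also with infinite prior degrees of freedom, adjusted p = 2.19e-05), and leaving out 1 library gave 0.28 to 0.43. A pseudocount of 5 gave Cxcl10 log2 folds of 1.22 at 24 h and 1.59 at 48 h. Median-of-ratios rescaling gave 48 h log2 folds of 0.73 for Cx3cl1 and 0.41 for Cxcl12, and length-trend removal 0.55 for Cxcl12. With the median transcript, mean levels were 16.6, 488 and 121 CPM per kilobase for Cxcl10, Cx3cl1 and Cxcl12, against 9.12, 68.5 and 64.7. Over all genes 355 rose and 276 fell. Median-of-ratios rescaling gave 95 and 83, or 809 and 459 with infinite prior degrees of freedom; length-trend removal gave 164 and 178, or 1112 and 781; no time term gave 20 and 11, and 10 prior degrees of freedom 39 and 25. Leaving out 1 library gave 16 to 1886 rising and 6 to 3063 falling. The causes of these differences were not tested. The planned edgeR fit was not run; limma voom on the recovered reads was. Counting error limits Cxcl10, at 120 reads in control at 24 h, more than the other genes.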
